A study of Drosophila melanogaster with 40 samples.

Results

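The comparison described here is that of chronic with acute feeding of the DMSO vehicle to wild-type flies, measured by RNA-seq of pooled heads. It rests on 13 of the 40 samples of the study, 6 with chronic DMSO (replicates 1 to 6) and 7 with acute DMSO (replicates 1 to 7), chosen by their sample labels. A further pool, chronic DMSO replicate 7, was left out of every value below unless it is named, because it held transcripts of testis, accessory gland and gut. All flies were WT males in the Oregon Red (w+) background, 10 days old at collection, and the labels give 0.2% DMSO for both groups. Chronic DMSO flies were kept from eclosion for 10 days on an instant medium (Formula 4-24) made up with vehicle. Acute DMSO flies were aged on a standard cornmeal-molasses food and were moved to the same instant medium with vehicle for the last 24 h. The groups therefore differed both in the time on DMSO and in the base food, and these cannot be told apart. No group fed without vehicle was analysed here, and males had been housed with females for the first days of adult life in both schedules. The labels describe heads, in pools of 20 (19 for chronic DMSO replicate 2), which were separated from frozen bodies with sieves. Each pool is 1 replicate, and since nothing says that pools came from separate cultures, the p-values measure only the spread between pools, which was estimated over all 6 groups of the study and may be technical.

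The fly head holds the brain and the compound eyes, and also cuticle, muscle and a layer of fat body. The fat body stores lipid, glycogen and serum proteins, breaks down sugars and amino acids and carries out much of the detoxification that cytochrome P450 enzymes and UDP-glycosyltransferases perform, so that its transcripts are known to follow the diet. Sugar intake is read by the Mondo-Mlx transcription factors and by hormones of the fat body and brain, among them the TGF-beta ligand daw and the peptide CCHa2. In RNA from whole heads, fewer cells of a type and less RNA per cell cannot be told apart.

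The 6 chronic DMSO pools held between 24318573 and 29386091 counts (median 26753592), and the 7 acute DMSO pools between 24494239 and 28874297 (median 28333633). Markers of photoreceptors, neurons and glia were present in all 13 pools, and none of these lists had a called member. The summed level of 36 midgut markers was 19.3 CPM (counts per 1000000 counts of the library, its total scaled by TMM) in chronic DMSO replicate 6, at most 5.90 CPM in acute DMSO, and had a median of 2.10 CPM in chronic and 2.46 CPM in acute pools. Testis markers summed to between 5.12 and 7.37 CPM in chronic and between 5.14 and 7.53 CPM in acute pools, against 1454 CPM in the excluded replicate 7. By the correlation of log2 CPM with the pools of its own group, chronic DMSO replicate 4 stood lowest (median r = 0.943) and acute DMSO replicate 5 next (median r = 0.960). Ribosomal RNA genes took 4.24 ± 2.41% of counts in chronic and 5.35 ± 2.67% in acute pools (SD, n = 6 and 7, two-sided exact permutation p = 0.450). For mitochondrial genes the exact permutation p was 0.421, and for transposable element (TE) families 0.834.

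Of 11452 features that passed edgeR's filter on low counts (11268 genes and 184 TE families), 137 differed between chronic and acute DMSO at an adjusted p under 0.05 (1.2% of the features tested, edgeR quasi-likelihood F test, Benjamini-Hochberg adjusted). Chronic DMSO was higher for 69 of them (0.603%) and lower for 68 (0.594%), and 129 were protein-coding genes. Genes of sugar, amino acid and storage metabolism and of the P450 family were among the falls. A muscle actin, transcription factors and a sugar-responsive ligand were among the rises. A group of taste-hair proteins was also called higher, but their direction was largely fixed beforehand by the filter on low counts, as described below. Changes were mostly small, with a median absolute log2 fold change of 0.67 and less than 1.5-fold for 57 of the 137. The chronic and acute pools did not overlap for 59 of the 137 (37 higher and 22 lower), and for 79 features (0.69%) among all those tested. Before adjustment, 1226 features had a p under 0.05.

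**Figure D1:**
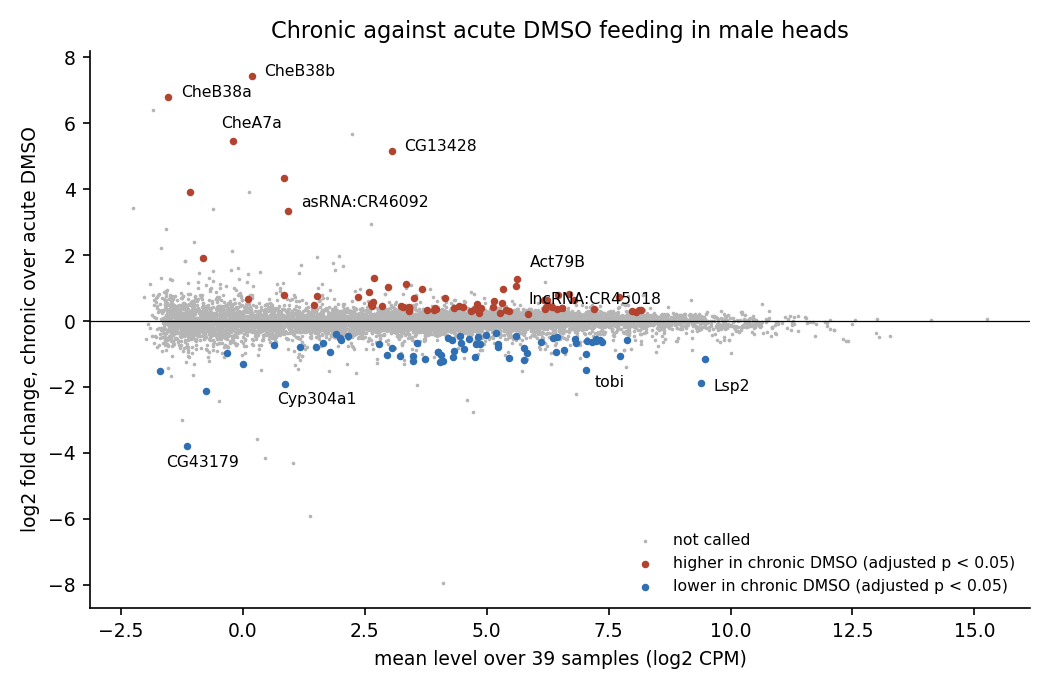
Log2 fold change of chronic over acute DMSO (vertical axis) against the mean level in log2 CPM over 39 samples (horizontal axis) for the 11452 features tested. Red points are the 69 features called higher and blue points the 68 called lower in chronic DMSO. The largest called rises belong to CheA and CheB genes and CG13428 at low levels, while Lsp2 and tobi fell at high levels.

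The number of calls depended on single pools. Leaving out 1 pool gave between 66 calls (without chronic DMSO replicate 6) and 236 (without acute DMSO replicate 1), and it gave 80 without acute DMSO replicate 5. Without both of the pools that stood lowest in correlation, chronic DMSO replicate 4 and acute DMSO replicate 5, 74 features were called, of which 56 were among the 137 (32 of the 69 rises and 24 of the 68 falls). These pools also took the extreme places: acute DMSO replicate 5 lay farthest from the chronic pools among the acute ones for 49 of the 68 falls and 34 of the 69 rises. Chronic DMSO replicate 6 was the lowest chronic pool for 41 of the 68 falls, and chronic DMSO replicate 4 the highest for 34 of the 69 rises. Acute DMSO replicate 1 reached into the range of the chronic pools for 37 of the 68 falls, but for 13 of the 69 rises. A fit of only the 13 DMSO samples called 20 features (0.181%), all of them among the 137. Of the 137, 51 were called in each of the 13 fits that leave out 1 pool. A further limit is shared sequence: 21 of the 69 rises and 23 of the 68 falls overlap an exon of another gene in the annotation. Among the genes named below, this holds on the opposite strand for Lsp2, CG32444, Galk, tobi, CG11594, CG3534, Cyp28d1, Cyp6d2 and IP3K1. Some calls also share reads: the counts of CG30080 and CG42662 were equal in every pool, and those of CG45085 and CG8026 nearly so. The 137 calls are therefore not all independent of each other.

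Among the genes called lower with a mean of at least 1 log2 CPM, Lsp2 had the largest fall. Lsp2 encodes a hexamerin, a serum storage protein of the fat body, and lies on chromosome 3L at 12129393 to 12131869 (build BDGP6, as are all positions here). Its level was 62.7, 204 and 400.3 CPM (lowest, median and highest) in chronic pools, against 129, 896 and 1226 CPM in acute pools. All 6 chronic pools were below the acute median, and the only overlap came from acute DMSO replicate 1, whose 129 CPM was far under the 536 CPM of the next acute pool. The log2 fold change was -1.87 ± 0.46 (SE, edgeR adjusted p = 0.029). It was -2.06 without acute DMSO replicate 1 (adjusted p = 0.0062) and -1.74 without acute DMSO replicate 5 (adjusted p = 0.079), and the call held in 6 of the 13 fits that leave out 1 pool. Of 7 tested fat body storage and yolk proteins, Lsp2 was the single called member. The hexamerin Lsp1alpha, at 0.966, 2.59 and 6.42 CPM in chronic pools, against 1.61, 10.5 and 21.7 CPM in acute pools, had a log2 fold change of -1.93 ± 0.56 (edgeR adjusted p = 0.078). For Lsp1beta it was -0.94 ± 0.28 (edgeR adjusted p = 0.086), and the list's median was -0.0076 against -0.00076 over all features. Mtp, which loads lipid onto the lipoproteins that leave the fat body, was at 49.2, 71.7 and 79.6 CPM in chronic pools, against 84.2, 88.5 and 109 CPM in acute pools. Its groups did not overlap, and it fell by 0.47 ± 0.10 on the log2 scale (adjusted p = 0.0070), as 1 of 8 lipid carriers tested.

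Several carbohydrate enzymes were lower in chronic DMSO. CG32444, annotated as an aldose 1-epimerase, which interconverts the ring forms of galactose and glucose, lies on chromosome 3L at 21636947 to 21639060. It was at 299.6, 408 and 539 CPM in chronic pools, against 386, 867 and 1833 CPM in acute pools. Acute DMSO replicate 1 was again the low acute pool, at 386 CPM, and acute DMSO replicate 5 the high one. CG32444 fell by 1.14 ± 0.22 on the log2 scale (adjusted p = 0.0033) and was called in each of the fits that leave out 1 pool. Galk, the galactokinase that takes galactose into metabolism, was at 73.7, 107 and 123 CPM in chronic pools, against 126, 159 and 186 CPM in acute pools. Its groups did not overlap, and it fell by 0.63 ± 0.14 (adjusted p = 0.013, and 0.061 without chronic DMSO replicate 6). CG7997, an alpha-galactosidase, also fell with no overlap, by 0.60 ± 0.12 (adjusted p = 0.0056). Its levels were 77.3, 101 and 119.7 CPM in chronic pools, against 129, 144 and 201 CPM in acute pools.

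tobi, a glucosidase known as a target of the insulin-producing cells of the brain, was at 21.1, 50.3 and 94.5 CPM in chronic pools, against 50.04, 152 and 260.1 CPM in acute pools. The groups overlapped through acute DMSO replicate 1 (50.04 CPM), and the next acute pool was above every chronic pool. It fell by 1.48 ± 0.35 (adjusted p = 0.019), and the call was lost without any 1 of chronic DMSO replicates 4, 5 and 6 and acute DMSO replicate 5. Sodh1, a sorbitol dehydrogenase, was at 61.9, 130.2 and 173 CPM in chronic pools, against 110.0, 244 and 496 CPM in acute pools. With overlap through the same acute pool, it fell by 1.05 ± 0.24 (adjusted p = 0.014, and 0.069 without acute DMSO replicate 5). Smaller falls were called for fbp, the fructose-1,6-bisphosphatase of gluconeogenesis (0.59 ± 0.14, adjusted p = 0.022), for the sugar kinase CG11594 (0.56 ± 0.13, adjusted p = 0.014) and for the xylulokinase-like CG3534 (0.45 ± 0.10, adjusted p = 0.014). Without chronic DMSO replicate 6 the adjusted p was 0.087 for fbp, 0.067 for CG11594 and 0.071 for CG3534. By list, tobi was the single called member of 9 starch and sugar digestion genes tested (median -0.098, with 4 of 9 at a positive log2 fold change). None of 13 glycolysis genes passed the test. Among these, Hex-C had the smallest p, with a log2 fold change of -0.51 ± 0.17 (edgeR adjusted p = 0.15), and the list's median was 0.013.

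**Figure D2:**
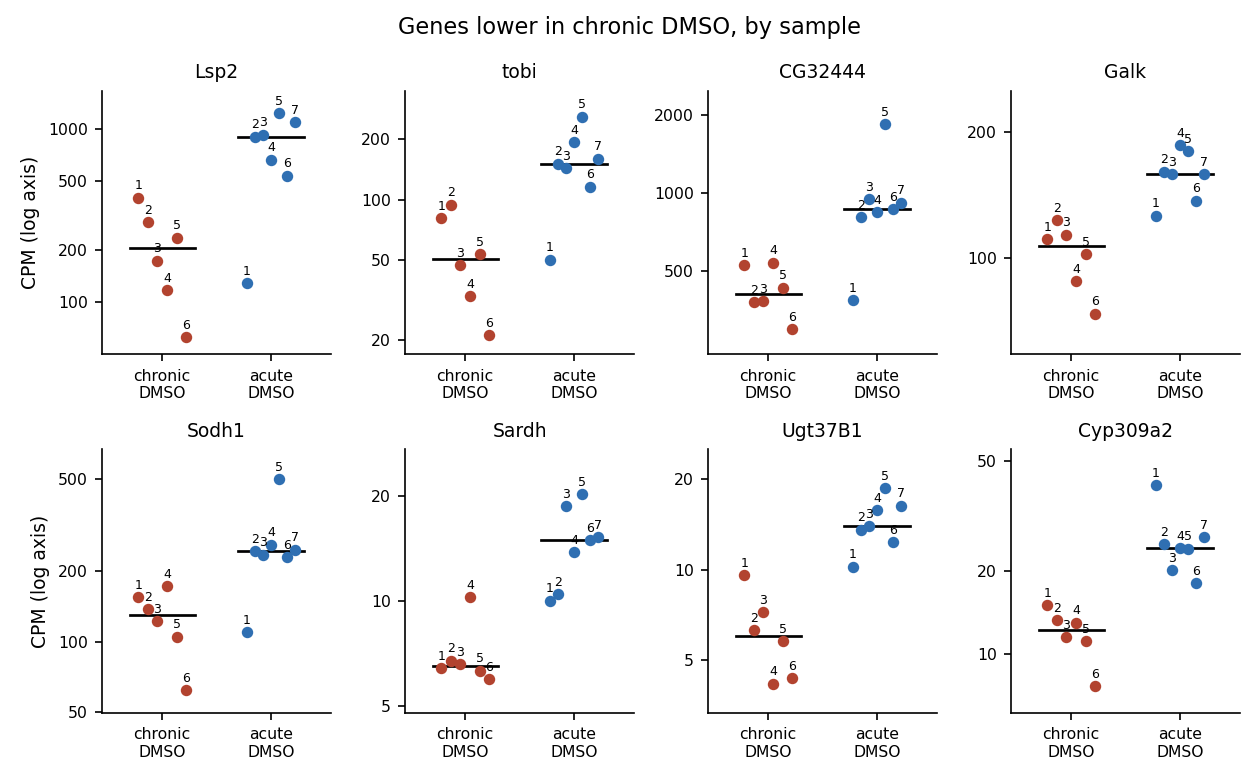
Levels of 8 genes called lower in chronic DMSO, in CPM on log axes. Each point is a pool, numbered by replicate, with 6 chronic DMSO pools in red on the left and 7 acute DMSO pools in blue on the right, and bars mark medians. Acute DMSO replicate 1 lies among the chronic pools for Lsp2, tobi, CG32444 and Sodh1, but is the highest acute pool for Cyp309a2.

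Among enzymes of amino acid breakdown, Sardh, the sarcosine dehydrogenase of mitochondria, had the smallest p of all falls. It was at 5.98, 6.50 and 10.3 CPM in chronic pools, against 10.0, 14.9 and 20.2 CPM in acute pools. The overlap was slight and came from chronic DMSO replicate 4, at 10.3 CPM, where the other chronic pools were at 6.75 CPM or less. Sardh fell by 1.06 ± 0.17 (adjusted p = 5.5e-04), was called in each of the fits that leave out 1 pool, and was the single called member of 16 tested genes of amino acid and purine breakdown (median -0.13, 11 of 16 negative). Argl, the argininosuccinate lyase of arginine metabolism, which overlaps an exon of CG9515 on the same strand, fell by 0.68 ± 0.16 (adjusted p = 0.015, and 0.060 without acute DMSO replicate 5). UK114, of the family that hydrolyses reactive imines, fell by 0.93 ± 0.22 (adjusted p = 0.022) and rested on acute DMSO replicate 5, which was at 249.8 CPM beside an acute median of 89.5 CPM. The log2 fold change of UK114 without that pool was -0.60 (adjusted p = 0.097). smp-30, a regucalcin-like gene of the fat body, was at 44.3, 58.1 and 82.4 CPM in chronic pools, against 55.9, 106 and 208 CPM in acute pools. Its groups overlapped through acute DMSO replicate 1, and it fell by 0.87 ± 0.19 (adjusted p = 0.010).

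In sugar sensing and its hormones, calls went both ways. CCHa2, a peptide of the fat body and gut that promotes insulin-like peptide release, was at 37.8, 48.1 and 63.6 CPM in chronic pools, against 57.3, 74.6 and 95.3 CPM in acute pools. It fell by 0.63 ± 0.16 (adjusted p = 0.039), close to the threshold, and the call was lost in 9 of the 13 fits that leave out 1 pool. daw, the activin-like ligand that sugar induces, was at 76.2, 96.5 and 104 CPM in chronic pools, against 42.6, 60.0 and 79.7 CPM in acute pools. It rose by 0.65 ± 0.13 (adjusted p = 0.0061) with overlap from a single chronic pool. These were the 2 called among 15 tested genes of sugar sensing and transport. sug, the Mondo-Mlx target sugarbabe, had a log2 fold change of 0.54 ± 0.16 (edgeR adjusted p = 0.080), and Mondo itself -0.12 ± 0.11 (adjusted p = 0.77). None of 13 insulin and FoxO genes was called. Ilp5 had a log2 fold change of -0.54 ± 0.16 (edgeR adjusted p = 0.077) and Ilp2 one of -0.38 ± 0.14 (adjusted p = 0.24), with acute DMSO replicate 5 the highest pool for both.

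Cytochrome P450 enzymes oxidise foreign compounds, hormones and lipids. Of 80 tested, 8 were lower and 1 higher in chronic DMSO, so that 10.0% were called lower beside 0.594% of all features, and 57 of the 80 had a negative log2 fold change (50.2% of all features had). The median over the family was -0.11. Chronic DMSO replicate 4 was low for some of the 80, with 159 reads of Cyp4ac1 and 58 of Cyp4e1. The other chronic pools had at least 1800 and 390. For Cyp18a1, at 739 reads, replicate 4 was the highest chronic pool. The sign count and median without that pool are not given here. Cyp309a2 had the smallest p, at 7.69, 12.3 and 15.1 CPM in chronic pools, against 18.1, 24.2 and 41.0 CPM in acute pools. Its groups did not overlap, and it fell by 1.10 ± 0.18 (adjusted p = 7.1e-04). Its neighbour Cyp309a1, which starts on chromosome 2L at 2562483 and ends at 2564830, just before Cyp309a2 at 2564886 to 2573037, fell by 1.24 ± 0.27 (adjusted p = 0.012). For Cyp309a1 the groups overlapped slightly, through chronic DMSO replicate 1 at 13.7 CPM. Cyp28d1 was at 75.4, 130.1 and 149 CPM in chronic pools, against 154, 183 and 262 CPM in acute pools. It fell by 0.64 ± 0.13 without overlap (adjusted p = 0.0062).

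The fold was largest for Cyp304a1, a gene at a low level, with 0.368, 0.780 and 1.11 CPM in chronic pools, against 1.37, 2.26 and 4.83 CPM in acute pools. It fell by 1.90 ± 0.42 without overlap (adjusted p = 0.013). Cyp12d1-p and Cyp12d1-d are near-identical neighbours on chromosome 2R, so that the split of reads between them is uncertain. They fell by 1.21 ± 0.28 (adjusted p = 0.016) and 1.16 ± 0.29 (adjusted p = 0.033), and neither was called without acute DMSO replicate 5. Cyp12c1 fell by 0.53 ± 0.13 (adjusted p = 0.020) and Cyp6d2 by 0.68 ± 0.17 (adjusted p = 0.024). Without chronic DMSO replicate 4 and acute DMSO replicate 5, Cyp309a2 and Cyp304a1 were the P450 genes still called lower and Cyp6a8 was still called higher. The single rise was that of Cyp6a8, at 3.44, 8.34 and 9.73 CPM in chronic pools, against 3.11, 3.68 and 5.75 CPM in acute pools. Its log2 fold change was 0.88 ± 0.20 (adjusted p = 0.013, and 0.056 without chronic DMSO replicate 6), with 5 of the 6 chronic pools above the acute median.

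Other enzymes of detoxification gave fewer calls. Ugt37B1, which couples sugars to small lipophilic molecules, was at 4.18, 6.03 and 9.58 CPM in chronic pools, against 10.2, 13.9 and 18.7 CPM in acute pools. No pools overlapped, and it fell by 1.21 ± 0.20 (adjusted p = 6.4e-04), as the single call among 24 UDP-glycosyltransferases tested (median -0.060). None of 32 glutathione S-transferases was called, although 26 had a negative log2 fold change and the median was -0.12 (-0.0073 without acute DMSO replicate 5). GstE9, with the smallest p of these, had a log2 fold change of -0.37 ± 0.14 (edgeR adjusted p = 0.24). None of 20 antioxidant and Cdk5 genes passed the test, and Keap1 had the smallest p among them (log2 fold change 0.23 ± 0.08, adjusted p = 0.18).

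Further falls belonged to genes outside these lists. comm2, of the Commissureless family that sorts the axon guidance receptor Robo, was at 7.35, 8.06 and 19.0 CPM in chronic pools, against 15.8, 22.2 and 25.2 CPM in acute pools. A single chronic pool overlapped the acute ones, and comm2 fell by 1.04 ± 0.19 (adjusted p = 0.0020). CG3699 fell by 1.17 ± 0.27 (adjusted p = 0.016), CG9119 by 1.11 ± 0.25 (adjusted p = 0.015) and CG33307 by 1.10 ± 0.22 (adjusted p = 0.0043). For CG33307 the groups did not overlap, and both extremes were single pools, chronic DMSO replicate 4 at 6.96 CPM and acute DMSO replicate 5 at 74.8 CPM. CG8389, which shares exon sequence with Prosbeta1 on the opposite strand, was at 16.9, 17.3 and 21.1 CPM in chronic pools, against 22.5, 23.8 and 27.9 CPM in acute pools. It fell by 0.46 ± 0.08 without overlap (adjusted p = 0.0015). asRNA:CR44179, opposite to exons of CG5112, was at 10.2, 14.5 and 15.3 CPM in chronic pools, against 19.9, 26.8 and 31.7 CPM in acute pools. It also fell without overlap, by 0.91 ± 0.16 (adjusted p = 0.0015). The library kit kept strand, but the strand setting of the counting is not given in the sources used here, so that values of these opposite-strand pairs are uncertain. Neprilysin-like genes, which encode peptidases that cut small peptides, were looked at as a family after their values were seen. Of 17 tested, 4 were called lower, against 0.594% of all features (Nepl6, Nepl11, Nepl13 and Nepl14, falling by 0.71, 0.55, 0.53 and 0.49) and none was called higher, with a median of -0.42. The family did not go 1 way throughout: 15 had a negative and 2 a positive log2 fold change. Of these 2, 1 had an unadjusted edgeR p under 0.05, and the largest value was 0.98. Nepl4 had between 471 and 770 reads in the chronic pools and between 143 and 760 in the acute ones. Nepl6 was called with or without any single pool, Nepl11 was not called without chronic DMSO replicate 6 (adjusted p = 0.066), and Nepl13 and Nepl14 were called in 4 and 8 of the 13 fits.

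The smallest p-values of the whole comparison belonged to rises. lncRNA:CR45018, a noncoding RNA on chromosome X at 13304005 to 13308004, was at 55.7, 66.0 and 81.6 CPM in chronic pools, against 25.4, 31.1 and 46.2 CPM in acute pools. Without overlap, it rose by 1.08 ± 0.13 on the log2 scale, which is 2.11-fold (adjusted p = 1.6e-05). It shares exon sequence with IP3K2 on the same strand, so that the source of its reads is uncertain. FBgn0266375, for which the files give no symbol, was at 109.9, 125 and 167 CPM in chronic pools, against 60.6, 71.5 and 94.5 CPM in acute pools. It rose by 0.81 ± 0.11 without overlap (adjusted p = 2.7e-05). Cdc7, the kinase that fires replication origins, was at 36.6, 44.1 and 49.5 CPM in chronic pools, against 22.7, 29.7 and 31.97 CPM in acute pools. It rose by 0.61 ± 0.08 without overlap (adjusted p = 3.3e-05). CG3348 rose by 1.29 ± 0.18 (adjusted p = 4.5e-05) and CG8785 by 0.70 ± 0.10 (adjusted p = 8.1e-05), also without overlap. CG3348, at 7.51, 9.11 and 10.6 CPM in chronic pools, against 3.02, 3.73 and 4.43 CPM in acute pools, lies opposite to exons of Hmu. All 5 of these were called with or without any single pool.

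Act79B, an actin of tubular muscles, on chromosome 3L at 21985210 to 21987190, was at 48.1, 61.0 and 86.0 CPM in chronic pools, against 23.6, 26.1 and 35.0 CPM in acute pools. Acute DMSO replicate 5 gave the 35.0 CPM, and the other acute pools lay within 23.6 and 26.7 CPM, below every chronic pool. The rise was 1.27 ± 0.25 on the log2 scale, or 2.42-fold (adjusted p = 0.0042), and it was also found in the fit of only the 13 DMSO samples (adjusted p = 0.0023). Act79B was the single called gene of 18 muscle genes tested, of which 17 had a positive log2 fold change and 9 an unadjusted p under 0.05 in that direction (4.92% of all features). The median over the list was 0.19. Act87E, a second actin, had a log2 fold change of 0.31 ± 0.10 (edgeR adjusted p = 0.12). Markers of thoracic flight muscle summed to between 6.34 and 19.5 CPM in chronic and between 4.96 and 10.98 CPM in acute pools, and their part in the rise was not tested.

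**Figure D3:**
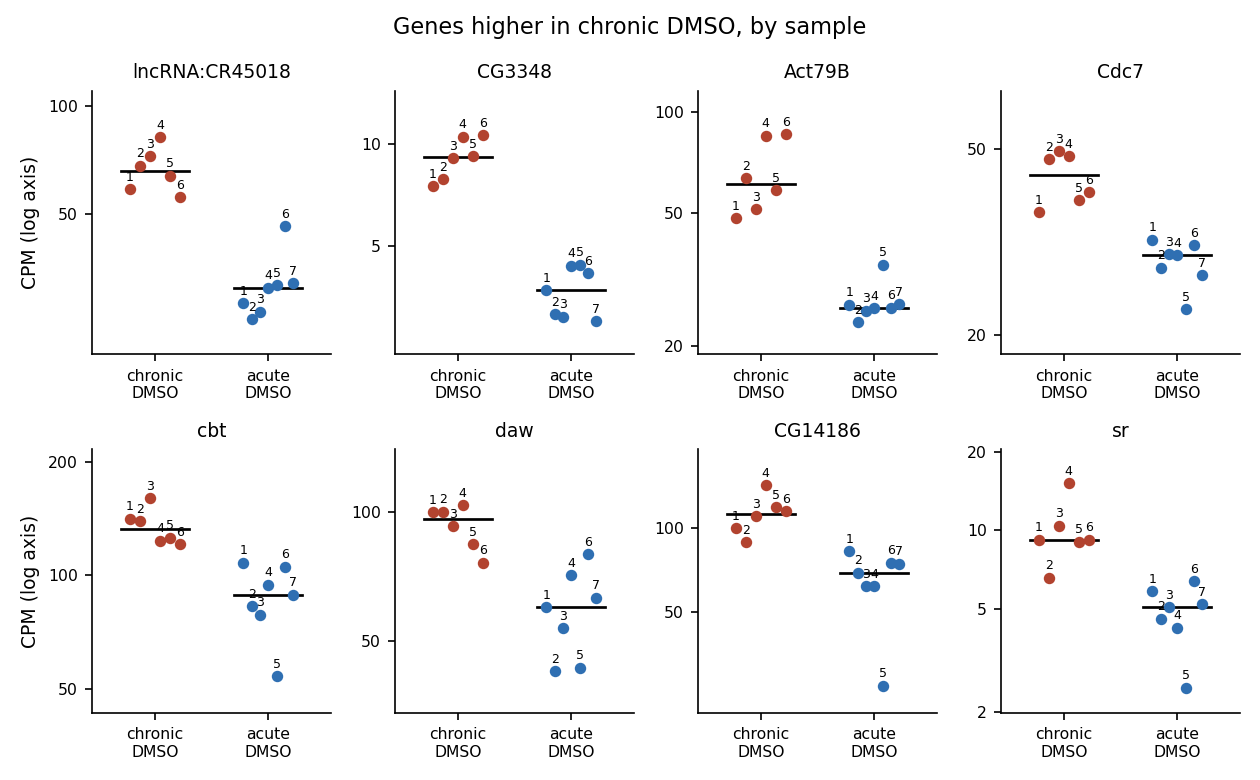
Levels of 8 genes called higher in chronic DMSO, in CPM on log axes. Each point is a pool, numbered by replicate, with chronic DMSO in red on the left and acute DMSO in blue on the right, and bars mark medians. The groups do not overlap for any gene shown except daw, and acute DMSO replicate 5 is the lowest acute pool for Cdc7, cbt, CG14186 and sr.

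Several transcription factors rose. cbt (cabut), a zinc finger factor of the sugar response, was at 121, 133 and 160.3 CPM in chronic pools, against 54.0, 88.8 and 108 CPM in acute pools. It rose by 0.63 ± 0.11 without overlap (adjusted p = 7.9e-04). hry, the repressor hairy, was at 72.6, 80.4 and 104 CPM in chronic pools, against 47.5, 52.9 and 65.6 CPM in acute pools. It rose by 0.65 ± 0.12, again without overlap (adjusted p = 0.0022). The homeobox gene Dr (0.96 ± 0.20, adjusted p = 0.0073) and the eye and head determination gene eya (0.42 ± 0.11, adjusted p = 0.033) were also higher. In a list of genes that neuronal activity induces, 2 of 9 tested rose (0.603% of all features did), all 9 had a positive log2 fold change (49.8% of all features had), and the median was 0.33. One was sr (stripe), an EGR-type factor, at 6.58, 9.21 and 15.2 CPM in chronic pools, against 2.49, 5.07 and 6.40 CPM in acute pools (rise of 1.03 ± 0.23, adjusted p = 0.014). The other was CG14186, at 88.7, 112 and 142 CPM in chronic pools, against 27.1, 69.1 and 82.6 CPM in acute pools (rise of 0.80 ± 0.15, adjusted p = 0.0026). Neither overlapped, but acute DMSO replicate 5 was the lowest pool for both, and sr was not called without it (adjusted p = 0.053). Hr38, the nuclear receptor most used as an activity marker, had a log2 fold change of 0.98 ± 0.29 (edgeR adjusted p = 0.089). Smaller rises without overlap were called for IP3K1, an inositol trisphosphate kinase (0.42 ± 0.07, adjusted p = 0.0015), drd, drop-dead (0.40 ± 0.08, adjusted p = 0.0034), and qsm, quasimodo, of clock light input (0.22 ± 0.05, adjusted p = 0.014). CG32512, with 38.6, 52.0 and 64.6 CPM in chronic pools, against 21.2, 25.98 and 37.1 CPM in acute pools, rose by 0.98 ± 0.17 (adjusted p = 9.9e-04). CG31809 rose by 1.13 ± 0.30 (adjusted p = 0.049), at the edge of the threshold, and was called in 3 of the 13 fits that leave out 1 pool. For eya the call held in 5 and for qsm in 6 of these fits. Named after their values were seen were cbt, hry, eya, IP3K1, drd, qsm, Galk, CG7997, Sodh1, fbp, CG11594, CG3534, Argl, UK114, smp-30, comm2, Cyp12c1, Cyp6d2 and, as uncalled list members, Lsp1alpha, Lsp1beta, sug, Mondo, Hr38 and Act87E.

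The largest called rises came from genes with almost no reads in acute DMSO, most of them CheA and CheB genes, which encode small secreted proteins of taste hairs and were taken as a family after their values were seen. Of 20 such genes counted 12 were tested, and 5 of these were higher in chronic DMSO (0.603% of all features were). The 5 had at most 13 reads in any acute DMSO pool, and CheB38a and CheB93a, the latter not called, had none. These genes passed the filter on low counts only through groups where they had more reads. Their direction was thus largely fixed beforehand, and the count and the p-values below are a description. CheB38b had between 12 and 157 reads in the chronic pools (275 in all), against 1 read in 1 of the 7 acute pools. The ratio of pooled CPM was 324, with a 95% counting interval of 57.7 to 12900, and the edgeR adjusted p was 0.038. CheB38a had between 1 and 43 reads in the chronic pools (83 in all), against 0 in all acute pools. A count of 0 allows up to 3 reads over the acute group, or 0.0155 CPM, so that on this floor CheB38a was at least 32.6-fold higher (adjusted p = 0.043), and at least 18.8-fold higher without chronic DMSO replicate 6, which gave 43 of the 83 reads. The lower end of its 95% counting interval was 25.9-fold. CheA7a had 217 reads in chronic and 5 in acute pools (ratio 51.2, interval 21.6 to 159, adjusted p = 0.013), CheA75a 380 and 21 (21.3, 13.8 to 34.9, adjusted p = 0.028) and CheB42b 100 and 7 (16.8, 7.88 to 43.0, adjusted p = 0.027). Intervals and floors cover counting error only. Chronic DMSO replicate 6 was the highest chronic pool for each of these 5 genes, and without it none of the 5 was called (adjusted p between 0.066 and 0.17), although the log2 fold changes were still between 3.55 and 6.46. The ratio of pooled CPM without that pool was 166 for CheB38b, 31.0 for CheA7a, 15.6 for CheA75a and 13.1 for CheB42b. That pool also had the highest midgut marker sum, at 19.3 CPM, and the part of other tissue in the rise was not tested.

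CG13428 also had few reads in acute DMSO, and more than any called Che gene in chronic DMSO. It too passed the filter on low counts through groups with more reads, so that its values are a description. It lies on chromosome 2R at 20539512 to 20540448. The chronic pools had between 162 and 852 reads each (5.47, 11.7 and 31.6 CPM), against between 0 and 33 reads (0, 0.203 and 1.13 CPM) in acute pools. Its groups did not overlap, the ratio of pooled CPM was 35.6 (95% counting interval 28.4 to 45.3), and the log2 fold change was 5.17 ± 1.04 (adjusted p = 0.0056). CG13428 was called in each of the fits that leave out 1 pool, and its log2 fold change was 4.77 without chronic DMSO replicate 6 (adjusted p = 0.020). Other members of the Che family had many reads in both schedules. CheB42c, with 2653 reads in chronic and 3358 in acute pools, had a ratio of 0.931, and CheA87a, with 1648 and 1410 reads, one of 1.38. Acute pools of the drug arms also held these reads: CheB38b had 107 reads over the acute 2-AAPA pools and 183 over the acute mitoQ pools, and CG13428 had 607 and 1520. Over the chronic pools, CheB38b had 452 reads with 2-AAPA and 93 with mitoQ, and CG13428 had 3011 and 1159. With mitoQ, both thus had fewer reads over the chronic than over the acute pools. The median log2 fold change of the 12 Che genes tested was 3.07 in the DMSO arm, 1.77 in the 2-AAPA arm and -0.19 in the mitoQ arm. Act79B also varied among the acute pools of the drug arms, between 26.3 and 60.9 CPM in acute 2-AAPA and between 26.3 and 94.4 CPM in acute mitoQ. In acute mitoQ, Act79B and CG13428 were both lowest in replicate 1 and both highest in replicates 6 and 7. Their order was not the same throughout, and whether they varied together was not tested. Acute 2-AAPA replicate 6, a pool of 13 heads, had the most CG13428 reads (326) and the 60.9 CPM of Act79B, but replicate 2 had 239 reads with 27.3 CPM. Acute mitoQ replicate 6 had 582 reads with 76.9 CPM, and replicate 7 had 296 reads with 94.4 CPM.

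**Figure D4:**
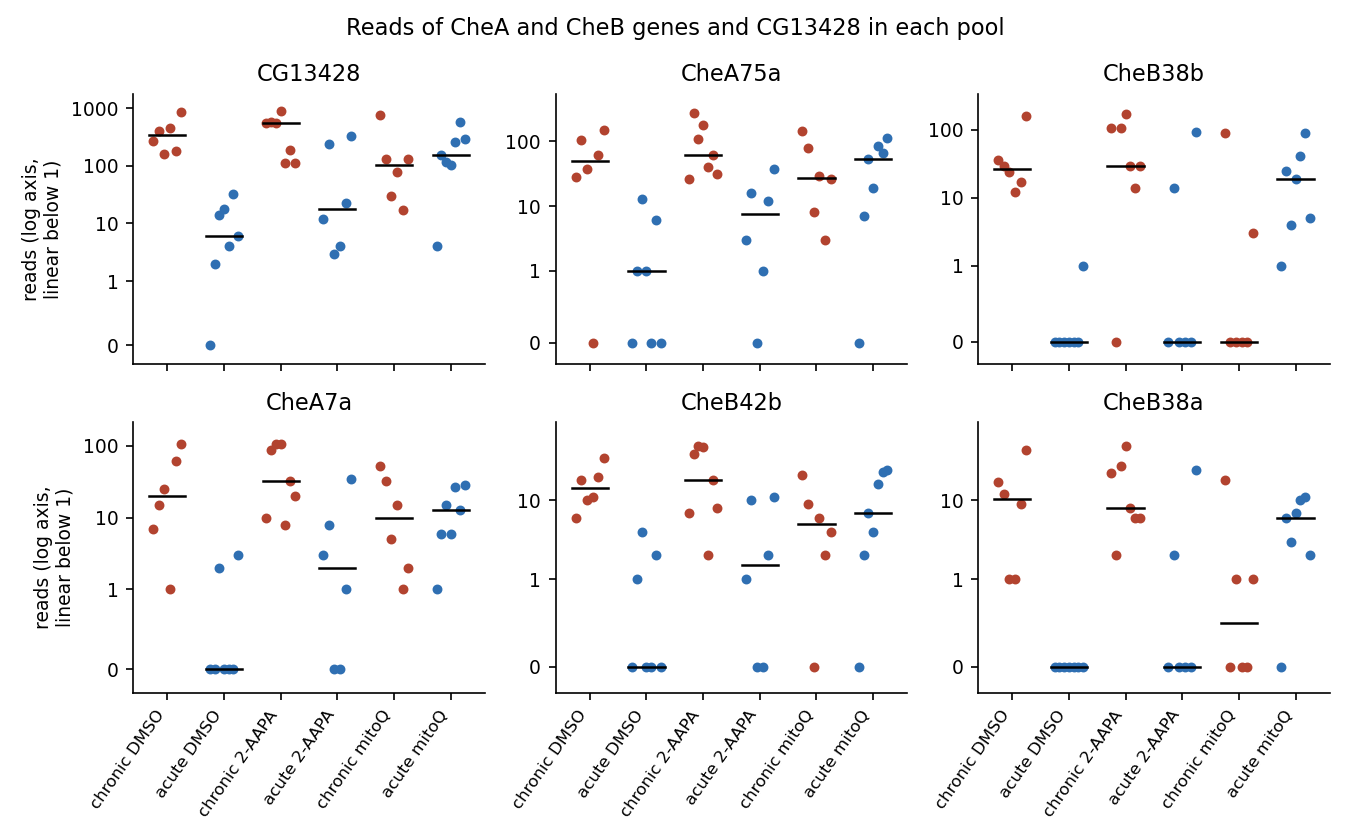
Reads per pool (vertical axis, log scale above 1 and linear below) of CG13428 and the 5 called CheA and CheB genes in each of the 6 groups, chronic in red and acute in blue, with bars at medians and chronic DMSO replicate 7 left out. The acute DMSO pools hold at most 33 reads of CG13428 and at most 13 of any Che gene shown, while several acute mitoQ pools hold as many reads as chronic pools do.

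Many functions showed no call. None of 14 Bomanins and Daishos, short immune peptides under Toll control, was called, but all 14 had a negative log2 fold change and 11 an unadjusted p under 0.05 (5.78% of all features were lower at that p), with a median of -0.87. BomS1 was at 36.0, 66.1 and 76.7 CPM in chronic pools, against 71.3, 93.4 and 339 CPM in acute pools, the highest of which was acute DMSO replicate 5. Its log2 fold change was -1.01 ± 0.27 (adjusted p = 0.054), and -0.55 without that pool (adjusted p = 0.31). Without acute DMSO replicate 5 the median over the 14 was -0.44, all 14 were still negative, and 6 had an unadjusted p under 0.05. Chronic DMSO replicate 4 was low for some of the 14, with 14 reads of BomS5 and 55 of BomT2, where the other chronic pools had at least 812 and 1277. For Dso1, at 17113 reads, it was the highest chronic pool. The median without that chronic pool is not given here. The 4 stress-induced Turandots tested were all negative as well (median -1.81), and TotC, at 2.74, 33.1 and 97.4 CPM in chronic pools, against 72.6, 113 and 531 CPM in acute pools, had an adjusted p of 0.086. Single pools stood apart here. Chronic DMSO replicate 4 had 67 reads of TotC and 99 of TotA, where the other chronic pools had at least 629 and 2239. Acute DMSO replicate 4 had 15559 reads of TotC and 7234 of TotM, where the other acute pools had at most 4466 and 998. The list's median was 0.30 in the 2-AAPA arm and -1.41 in the mitoQ arm. Antimicrobial peptides (13 tested, median -0.35), peptidoglycan recognition proteins (10, median -0.095), heat shock genes (16, median -0.11) and genes of the endoplasmic reticulum stress response (8, median 0.0096) had no call. Without acute DMSO replicate 5 the median of the antimicrobial peptides turned to 0.61. The citric acid cycle (13, median 0.084), nuclear respiratory chain genes (70, median -0.092, and 0.098 without acute DMSO replicate 5), transcripts of the mitochondrial genome (23, median 0.51) and cytosolic ribosomal proteins (81, median -0.15, 79 negative, but a median of 0.071 without acute DMSO replicate 5) had none either. Mitochondrial genes took 0.439% of counts in chronic DMSO replicate 4 and 0.241% in replicate 6, where the median of the chronic pools was 0.0925%. Nor did the proteasome (34, median -0.086, and 0.024 without acute DMSO replicate 5), autophagy (21, median 0.0019), circadian clock (14, median 0.068), phototransduction (25, median 0.019) or synaptic vesicle and active zone genes (17, median 0.083). Of 11 genes of monoamine synthesis and transport none was called, and SerT, the serotonin transporter, had a log2 fold change of 0.33 ± 0.09 (edgeR adjusted p = 0.052). No TE family was called. The median log2 fold change was -0.036 over 118 LTR, -0.12 over 37 LINE and 0.071 over 24 DNA transposon families.

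The same change of schedule was made in separate pools of flies fed 2-AAPA (7 chronic and 6 acute pools) and mitoQ (6 chronic and 7 acute pools), and the DMSO calls were set beside them. The labels give DMSO as the vehicle of all arms, whereas a list of compounds from the study gives ethanol as the solvent of mitoQ, so that drug and solvent cannot be told apart in the mitoQ arm. In the 2-AAPA arm 564 features were called (4.92%) and in the mitoQ arm 17 (0.148%). All 69 features that rose in DMSO had a positive log2 fold change in the 2-AAPA arm, where 34 of them were called, and 67 of the 68 that fell had a negative one, with 60 called. Among all features that were positive in DMSO 68.0% were positive in the 2-AAPA arm, and among those negative 50.3% were negative. In the mitoQ arm 61 of the 69 rises and all 68 falls had the same sign, and 13 and 3 were called. There, 72.0% of all positive and 73.7% of all negative features had the same sign. The median log2 fold change of the 68 falls was -0.79 in the DMSO arm, -0.79 in the 2-AAPA arm and -0.46 in the mitoQ arm. For the 69 rises it was 0.47 in the DMSO arm, 0.41 in the 2-AAPA arm and 0.24 in the mitoQ arm. For the difference between the DMSO and mitoQ arms, 25 of the 69 rises and 5 of the 68 falls had an unadjusted edgeR p under 0.05. Between the DMSO and 2-AAPA arms, 9 of the 69 rises and 1 of the 68 falls did. Among all 11452 features the numbers were 194 for mitoQ and 592 for 2-AAPA. The features were chosen by their DMSO values, which also enter the difference. These counts and the medians in the DMSO arm are therefore a description, and the medians were not compared between arms. Lsp2 had a log2 fold change of -2.53 with 2-AAPA (edgeR adjusted p = 5.3e-04) and -1.09 with mitoQ (adjusted p = 0.70). Act79B had 0.88 (adjusted p = 0.034) and -0.09 (adjusted p = 0.98). The difference between arms was tested itself. No feature passed it for DMSO against 2-AAPA (592 at an unadjusted p under 0.05, and 31 called by DESeq2 and 17 by limma) or for DMSO against mitoQ (194 at an unadjusted p under 0.05, 1 called by DESeq2 and 0 by limma).

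**Figure D5:**
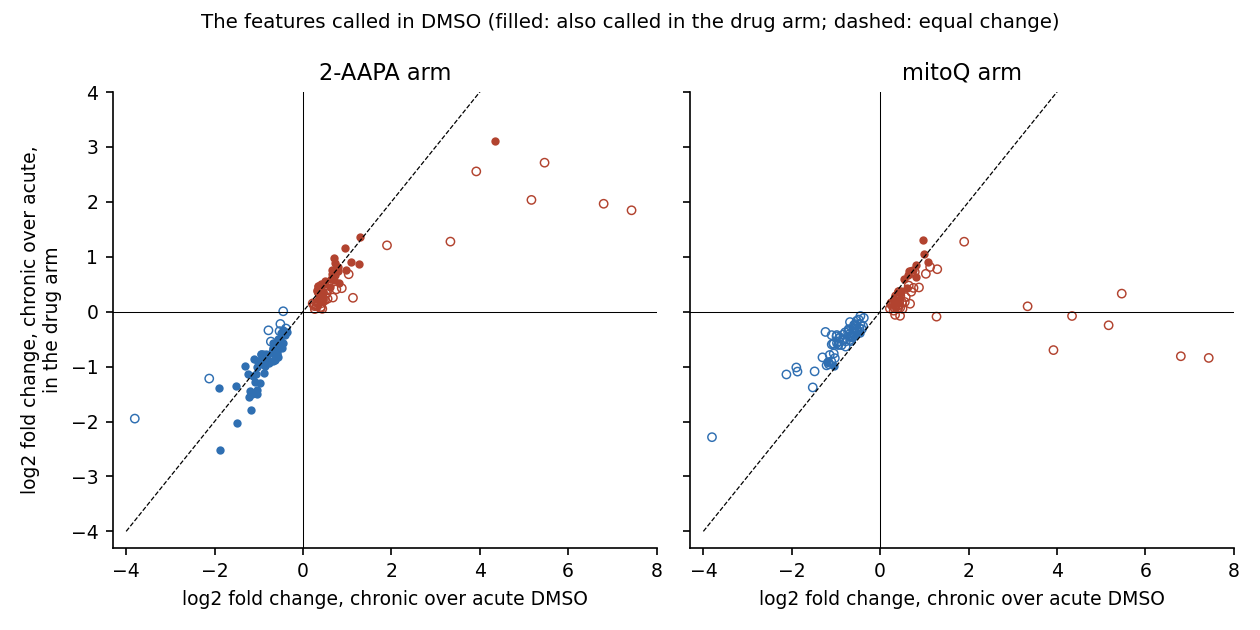
Log2 fold change of chronic over acute feeding in the 2-AAPA arm (left) and the mitoQ arm (right), against that in the DMSO arm, for the 137 features called in DMSO. Red points rose and blue points fell in DMSO, filled points were also called in the drug arm (94 with 2-AAPA and 16 with mitoQ), and the dashed line marks an equal change. The features were chosen by their DMSO values, so that places off the line are not read as a difference between arms. The 6 points far to the right of the others, at a log2 fold change near 4 or more in DMSO, are CG13428 and the 5 Che genes.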

How the data were processed

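The authors deposited raw read counts per gene and per TE family. These counts came from poly-A selected, strand-keeping libraries that the authors aligned by nf-core's RNA-seq workflow 3.10.1 to the BDGP6 genome, clipping 12 bases per read and allowing up to 500 locations. Genes were counted with featureCounts and TE families with TEcount. Counting versions, the strand setting and the treatment of overlapping genes are not stated in the sources used here. The equal counts of CG30080 and CG42662 show that some reads were counted for more than 1 gene. Allowing many locations bears on near-identical genes and TE families.

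Samples were grouped by their labels, and no 2 libraries were identical. From the counts, edgeR 4.0.16 (R 4.3.3) with TMM scaling, its low-count filter and the robust quasi-likelihood test was fitted over 39 samples with 1 mean per group, so that all groups share the estimate of spread. P-values were adjusted by Benjamini-Hochberg over all 11452 features and called under 0.05. CPM used TMM-scaled totals, log2 CPM a prior count of 2, and SEs were derived from the F statistic. Single values were compared by exact permutation over the 1716 splits. Positions and overlaps came from Ensembl release 115, which held 17252 of 17558 gene IDs. In simulated data the test recovered 73 of 100 genes changed 1.5-fold and 90 of 100 changed 2-fold, with 7 false calls among 11417 genes. The simulated counts varied independently from gene to gene, with no pool standing apart, and genes with few counts were not among those changed. These rates therefore do not carry over to the data.

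The members and gene lists were chosen with earlier results of these data known, so lists are described by counts and medians only. Named genes were the 10 largest changes in each direction among calls with a mean of at least 1 log2 CPM, the 5 smallest p in each direction, up to 4 called members per list and direction, and the 2 smallest p of lists with no call. Genes named beyond this rule are said to be so. List symbols that could not be matched (19) were not analysed here. Alternatives were DESeq2 1.42.0 (its test and its size factors), limma 3.58.1, no filter, a replicate block, replicate 7 included, ribosomal RNA as a covariate or removed with mitochondrial genes, DMSO samples alone, a 1.5-fold minimum and leaving out pools.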

Additional observations from a re-analysis of the deposited data

Results flagged for a closer look

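Single pools stood apart from their group for several named genes, by a gap to the nearest pool that was large beside the range of the group. Chance alone gives such a gap in about 1 in 20 groups. Among genes that were lower in chronic DMSO, Sardh was at 10.27 CPM in chronic DMSO replicate 4 (nearest pool 6.747 CPM), CG33307 at 6.959 CPM in the same pool (nearest 14.63 CPM), Cyp309a1 at 13.71 CPM in chronic DMSO replicate 1 (nearest 8.923 CPM) and CG8389 at 21.09 CPM in chronic DMSO replicate 2 (nearest 18.3 CPM). On the acute side, Lsp2 was at 128.7 CPM in acute DMSO replicate 1 (nearest 536.1 CPM), and CG33307 at 74.84 CPM in acute DMSO replicate 5 (nearest 35.22 CPM).

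Among genes that were higher in chronic DMSO, asRNA:CR46092 was at 42.82 CPM in chronic DMSO replicate 4 and at 1.369 CPM or less in the other chronic pools. Acute DMSO replicate 5 stood apart for Act79B (35 CPM, nearest 26.66 CPM) and CG14186 (27.07 CPM, nearest 61.63 CPM). Acute DMSO replicate 6 did so for CG32512 (37.11 CPM, nearest 26.43 CPM) and lncRNA:CR45018 (46.25 CPM, nearest 32.08 CPM).

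Chronic DMSO replicate 7, which entered no comparison, held testis markers at 1453.9 CPM in sum (at most 7.5309 CPM in the 13 pools compared), accessory gland markers at 986.92 CPM (at most 10.48 CPM) and midgut markers at 672.59 CPM (at most 19.274 CPM).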

How the results depend on the processing

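The 137 calls in DMSO became 242 with DESeq2's test (134 of the 137 among them), 586 with chronic DMSO replicate 7 included (128 shared, and 417 of the 586 higher), 20 in a fit of the DMSO samples alone, and 80 when a change of over 1.5-fold was also asked. With any 1 pool left out they ranged between 66 and 236. Without chronic DMSO replicate 4 and acute DMSO replicate 5, chosen after seeing the data, there were 74, and DESeq2's test on the 13 DMSO samples, also added then, called 113. Scaling by DESeq2's size factors (132), no filter (117), limma (121), the ribosomal RNA covariate (110) and removal of ribosomal RNA and mitochondrial genes (132) moved the count less. Replicate numbers did not pair the samples, since no pool correlated best with its own number, and a replicate block gave 104 calls. Called members of the lists numbered 25 and became 53 with DESeq2, 83 with replicate 7, 7 with DMSO samples alone and between 15 and 53 with pools left out. In the 2-AAPA arm 276 of 564 calls passed 1.5-fold, and in the mitoQ arm DESeq2 called 37 features and edgeR 17. The difference of the DMSO and 2-AAPA arms, with 0 calls by edgeR, had 31 with DESeq2, 17 with limma and 29 with replicate 7, and that of the DMSO and mitoQ arms had 1 with DESeq2. The cause of these shifts was not tested, apart from the fewer samples or features that some settings use.

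Some log2 fold changes turned in sign. With replicate 7 these were Jon74E (1.28), COX6AL (1.54), His2B:CG33868 (0.78) and His2B:CG33872 (0.75). Over the fits with pools left out, asRNA:CR46092 ranged between -0.11 and 3.85, Def between -0.69 and 2.47, mt:ATPase8 between -0.28 and 1.92, mt:srRNA between -0.42 and 2.045, and Crtc between -0.39 and 0.027. Sil1 ranged between -0.019 and 0.091, RpS27A between -0.38 and 0.0020, mRpS21 between -0.47 and 0.043 and mRpS33 between -0.42 and 0.013. Genes with few reads, such as the Che genes, were limited by depth, since at most 33 reads per acute DMSO pool stood behind each of those called.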

Other observations

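Enzymes of lipid and pigment metabolism had values near the threshold without a call. bond, an elongase of very long chain fatty acids, was at 42.0, 47.2 and 50.8 CPM (lowest, median and highest) in chronic pools, against 32.4, 37.5 and 45.5 CPM in acute pools, with a log2 fold change of 0.29 ± 0.08 (edgeR adjusted p = 0.062). It belongs to 7 tested genes of hydrocarbon synthesis, which had no call and a median of 0.29. v (vermilion), the tryptophan oxygenase of the brown eye pigment pathway, was at 30.4, 39.1 and 48.2 CPM in chronic pools, against 43.0, 49.0 and 93.5 CPM in acute pools (log2 fold change -0.51 ± 0.15, edgeR adjusted p = 0.086). Ctr1B, a copper importer, had a log2 fold change of -0.43 ± 0.13 (edgeR adjusted p = 0.092), and stv (starvin), a co-chaperone of Hsp70, one of 0.21 ± 0.06 (edgeR adjusted p = 0.072).

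Of 196 antisense RNAs tested, 3 were lower in chronic DMSO (1.53%, beside 0.594% of all features) and 1 was higher (0.603% of all features were). Besides asRNA:CR44179, asRNA:CR45175 fell by 0.59 ± 0.13 (edgeR adjusted p = 0.010) and asRNA:CR44021 by 0.68 ± 0.16 (edgeR adjusted p = 0.024), each opposite to exons of a coding gene. The rise was that of asRNA:CR46092, opposite to GluProRS, whose log2 fold change of 3.34 ± 0.83 (edgeR adjusted p = 0.030) came from chronic DMSO replicate 4 and was -0.11 without it.

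A single pool also set the level of a few other transcripts. Chronic DMSO replicate 4 had 25.2 CPM of mt:ATPase8 and 44.9 CPM of mt:srRNA, both of the mitochondrial genome, where the other chronic pools had at most 1.56 and 2.75 CPM and the acute pools at most 2.12 and 5.95 CPM. Def, the antimicrobial peptide defensin, was at 8.73 CPM in chronic DMSO replicate 6, at 0.39 CPM or less in the other chronic pools and at 0.602 CPM or less in the acute pools.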
